A study of Lolium arundinaceum with 6 samples.

Results

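The unigenes described here kept most of their control level, or more, through 2 h of heat and were low after 12 h. They are called the late-loss unigenes, and they are 43 of the 179680 unigenes assembled from tall fescue leaves. A unigene is 1 gene-level unit of the transcript assembly. It entered the set when both control libraries held at least 40 CPM, when both libraries of 2 h held at least 0.7 of the lower control, and when both libraries of 12 h held at most 0.25 of the lower control. CPM is the count of a unigene per 1000000 counts of its library. The members were thus selected on the values of all 6 libraries, so the levels, folds and calls of the 43 below describe the choice and are not tests of it. Of 2670 unigenes with the control minimum, 1396 met the limit at 2 h, 272 met the limit at 12 h and 44 met both. A list of 6 unigenes was left out of the selection, and 1 of the 44 was on it.

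Tall fescue is a perennial cool-season turfgrass, and the seedlings were 10-day-old wild type plants of the variety Fire Phoenix II grown on MS medium. Control leaves were collected at 23 °C and are labelled 0 h, and heated leaves were collected after 2 or 12 h at 38 °C. No melatonin or epibrassinolide is named in the labels of these libraries. Each of the 3 groups has 2 biological replicates, and both times of heat share the same controls, so the hour of sampling cannot be told apart from the duration of heat. The libraries held 6349776 to 7891567 counts each, which puts 3 counts at 0.38 to 0.472 CPM, and a single unigene took 7.03 to 8.84% of the counts. The lowest count of a late-loss unigene at 12 h was 16, well above that floor. In bulk leaf RNA, fewer cells of a type and less RNA per cell cannot be told apart.

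The level of an mRNA is set by how fast it is made and how fast it is broken down. When synthesis stops, a stable mRNA stays measurable for longer than an unstable one. Heat is known to turn leaf transcription towards chaperones and to lower many transcripts of growth and photosynthesis. Descriptions were at hand for 5 of the 43 unigenes, by their best match in Arabidopsis. These are a phytochrome-interacting factor (PIF), a SEUSS co-regulator, a RING/U-box protein, a late embryogenesis abundant (LEA) protein and a protein of unknown function. PIFs are basic helix-loop-helix transcription factors that phytochrome photoreceptors bind and send for breakdown in light, and they promote elongation growth. In Arabidopsis, SEUSS is an adaptor that brings co-repressors to transcription factors. RING and U-box proteins are mostly ubiquitin ligases, which mark other proteins for the proteasome, and LEA proteins are hydrophilic proteins that accumulate in drying seeds and in water-stressed tissue. The other 38 are named only by their assembly number. Only part of the study's list of changed unigenes was at hand, so some of the 38 may have a description there. Descriptions came from lists of unigenes the study called changed, and 11.6% of the late-loss unigenes had one against 7.79% of the 2670.

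Summed over the 43 unigenes, the control libraries held 6166 and 6638 CPM, the 2 h libraries 6873 and 6024 CPM, and the 12 h libraries 916 and 974 CPM. The mean (± SD of 2 libraries) was 6402 ± 333 CPM for controls, 6449 ± 600 CPM for 2 h and 945 ± 40.6 CPM for 12 h. The sum at 2 h was thus 100.7% of the control mean with overlapping libraries, and the sum at 12 h was 14.8% of it with no overlap. The 43 together took 0.602 to 0.687% of all counts in controls and at 2 h, and 0.0916 to 0.0974% at 12 h. Single unigenes spread around this sum. Their mean control level ran from 43.6 to 862 CPM with a median of 99.96 CPM, 21 of them had at least 100 CPM and 9 at least 200 CPM.

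**Figure D1:**
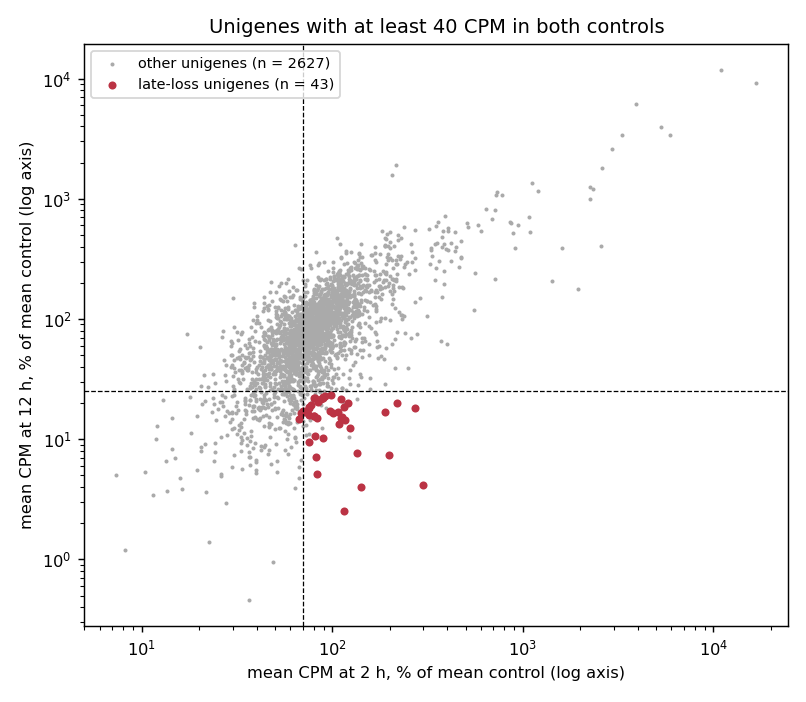
Mean CPM at 2 h (x axis) and at 12 h (y axis), each as a percent of the mean control on log axes, for the 2670 unigenes with at least 40 CPM in both controls. Red points are the 43 late-loss unigenes, grey points are the other 2627, and dashed lines mark 70% and 25%, which the selection applied to single libraries and not to these means. The late-loss unigenes lie at 66.5 to 299.7% at 2 h and at 2.52 to 23.5% at 12 h.

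The mean at 2 h was 66.5 to 299.7% of the mean control, with a median of 89.7%, beside a median of 78.1% over the 2670. The mean at 12 h was 2.52 to 23.5%, with a median of 16.7% beside 76.8%. The selection set both of these ranges. Few unigenes combined the 2 limits. Of the 1396 that were held at 2 h, 3.15% were at or under the limit at 12 h, and of the 1274 not held, 17.9% were. Put the other way, 16.2% of the 272 unigenes that were low at 12 h had been held at 2 h, while the other 228 had already dropped under the limit of 0.7 in at least 1 library of 2 h. The plot of both ratios shows the late-loss unigenes at the lower edge of the cloud, to the right of the unigenes that were low at both times. Both ratios use the same controls, so their rank correlation over the 43 (rho = -0.16) is only a description.

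The mean level at 12 h was 3.65- to 72.3-fold below that at 2 h, with a median of 5.99-fold. In all 43 unigenes both libraries of 12 h were below the other 4 libraries, as the limits require. Over the 2670 this held for 35.0%. At 12 h, 8 unigenes had at most 0.1 of the mean control and 3 had at most 0.05. At 2 h, 7 unigenes had both libraries above both controls, 17 overlapped them and 19 had both libraries below. Over the 2670 the shares were 17.0%, 21.6% and 61.3%, and as the limit at 2 h bounds these counts, nothing is read from them. The 7 were at a median of 18.2% of control at 12 h, the 17 at 14.9% and the 19 at 16.8%.

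**Figure D2:**
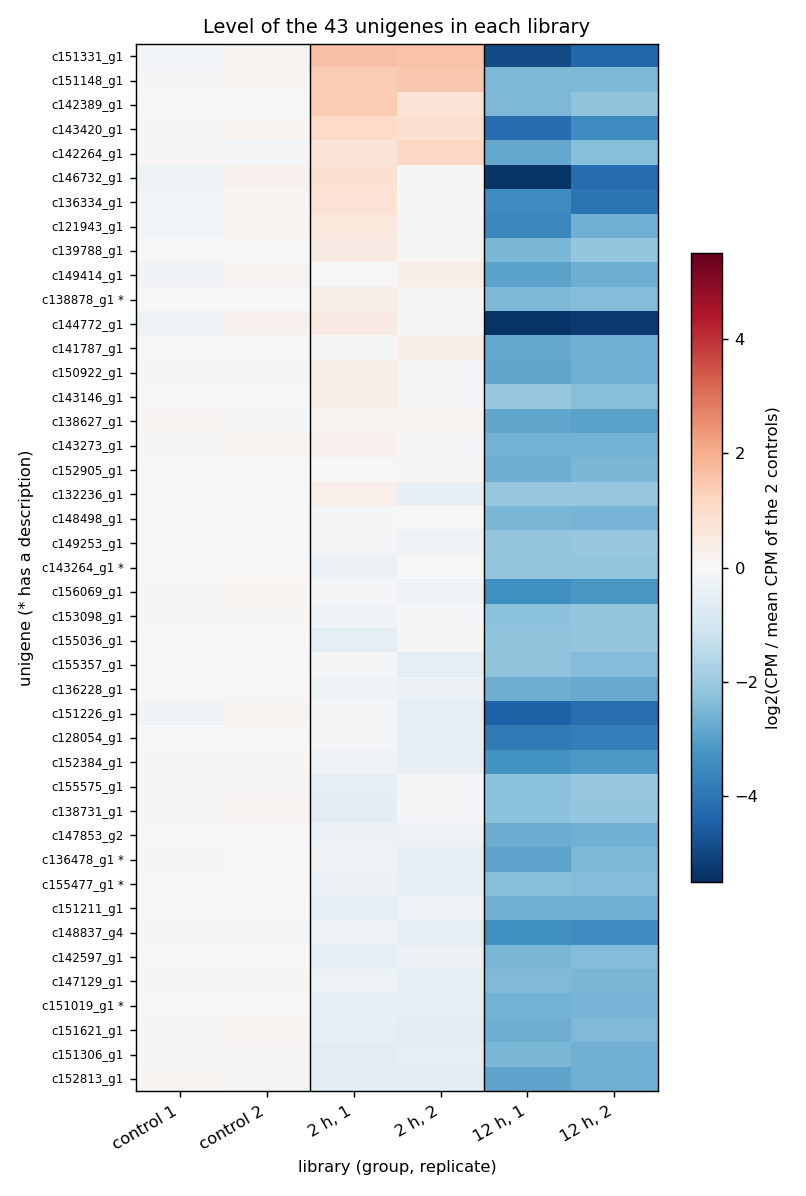
Level of the 43 late-loss unigenes (rows) in the 6 libraries (columns), as log2 of CPM over the mean CPM of the 2 controls. Rows run from the highest to the lowest ratio of 2 h to control, blue is lower and red is higher than control, and an asterisk marks the 5 described unigenes. Columns of 2 h pass from red to pale blue down the rows, while columns of 12 h are blue in every row.

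The PIF-like unigene, c155477_g1, has Arabidopsis PIF3 as its best match, and its match in rice is described as phytochrome-interacting factor 4. It stood at 108 and 113 CPM in control leaves, at 89.6 and 81.6 CPM after 2 h, and at 21.8 and 21.0 CPM after 12 h. The libraries of 2 h were below both controls, at a mean of 77.5% of control, and those of 12 h were far below both, at 19.4%. On the scale of trimmed mean of M-values (TMM), which corrects library totals for the composition of the libraries, the log2 fold change from control was -0.52 (SE 0.15) at 2 h and -2.25 (SE 0.17) at 12 h. The 2 libraries of each group lay within 8 CPM of each other. The selection required the step from 2 to 12 h, so its size is not evidence of a change.

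Another 2 unigenes match the same Arabidopsis gene, and neither met the selection. c150251_g2 had control libraries at 9.92 and 9.25 CPM, 2 h libraries at 7.16 and 4.10 CPM, and 12 h libraries at 3.01 and 3.46 CPM. It was lower at 12 h than in controls (log2 fold change -1.45, SE 0.34, edgeR adjusted p = 0.003), but 12 h did not differ from 2 h past the threshold (-0.55, SE 0.35, edgeR adjusted p = 0.22). c149241_g1 was scarce, with 1.57 and 2.28 CPM in control leaves, 4.61 and 2.19 CPM after 2 h and 4.21 and 5.81 CPM at 12 h. Its level was higher at 12 h than in controls (1.47, SE 0.44, edgeR adjusted p = 0.013), though not past the threshold without control replicate 1 (1.23) or without replicate 2 of 12 h (1.28). Of the 3, the late-loss unigene had the most control counts, which are not corrected for length.

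A list of light perception and clock unigenes, made of word matches in the descriptions, holds 15 tested unigenes beside c155477_g1. At 2 h, 1 was called higher and 1 lower than in controls, and at 12 h 3 were called higher and 11 lower. Their median log2 fold change was -0.58 at 2 h and -1.84 at 12 h, against 0.05 and 0.00 over all 28005 unigenes tested. Since descriptions were at hand only for unigenes the study had called changed on these libraries, neither count stands as independent evidence of a direction. The 1 called lower at 2 h matches phytochrome A, the photoreceptor of far-red light. That unigene, c145535_g1, stood at 8.35 and 8.74 CPM in control leaves, at 1.15 and 2.20 CPM after 2 h, and at 0.150 and 0.830 CPM after 12 h, near the floor of 3 counts. It was low at both times of heat. The PIF unigene had to be held at 2 h by library totals to be selected, so the 2 are not compared. Another of the list, c152021_g1, matches a phytochrome-associated protein that is also named IAA26, a repressor of auxin response. It had control libraries at 32.9 and 30.2 CPM, 2 h libraries at 36.0 and 43.6 CPM, and 12 h libraries at 7.97 and 8.30 CPM, which missed the control minimum and, with its higher 12 h library at 0.275 of the lower control, the limit at 12 h. Its log2 fold change was 0.18 (SE 0.18) at 2 h and -1.84 (SE 0.20) at 12 h. Of the same match, c144562_g1 missed only the control minimum. Its lowest 2 h library held 0.744 of the lower control and its highest 12 h library 0.0884. c149452_g1, also of this match, was scarce, with 1.575 and 4.308 CPM in control leaves.

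The SEUSS-like unigene, c143264_g1, stood at 55.4 and 55.5 CPM in control leaves, at 43.8 and 55.7 CPM after 2 h, and at 12.5 and 12.5 CPM after 12 h. One library of 2 h lay above both controls and the other below, and the mean was 89.7% of control. The mean at 12 h was 22.5% of control, and the log2 fold change was -0.31 (SE 0.17) at 2 h and -2.04 (SE 0.19) at 12 h.

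A second unigene with the same Arabidopsis match, c144089_g1, missed the control minimum and, with 0.65 of its lower control, the limit at 2 h. It had control libraries at 38.4 and 37.8 CPM, 2 h libraries at 24.6 and 28.4 CPM, and 12 h libraries at 3.91 and 4.43 CPM. It was lower at 12 h than in controls (log2 fold change -3.07, SE 0.22, edgeR adjusted p = 3.1e-07) and lower at 12 h than at 2 h (-2.40, SE 0.22, edgeR adjusted p = 9.2e-06), while at 2 h it stayed short of a 2-fold change (-0.68, SE 0.18, edgeR adjusted p = 0.013). The mean was 69.5% of control at 2 h and 10.9% at 12 h. The selection required the late step of c143264_g1, so nothing is read from a likeness of the 2 SEUSS-like unigenes. Reads of near-identical copies may also have been shared between them by the counting.

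The RING/U-box unigene, c151019_g1, stood at 123 and 128 CPM in control leaves, at 91.5 and 87.9 CPM after 2 h, and at 20.9 and 21.2 CPM after 12 h. Its 3 groups did not overlap, with the mean at 71.4% of control at 2 h and at 16.8% at 12 h. The log2 fold change was -0.63 (SE 0.15) at 2 h and -2.46 (SE 0.16) at 12 h. Among 386 other tested unigenes with words of the ubiquitin system in their description, 103 were called higher and 32 lower at 2 h, and 209 were called higher and 147 lower at 12 h. Their median log2 fold change was 0.26 at 2 h and 1.14 at 12 h, with the same limit on independence as above. The selection itself put the RING/U-box unigene on the lower side at 12 h, so nothing is read from its place beside these counts.

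The word match behind the list of transcription factors missed the PIF unigene, although PIFs are transcription factors. The list held the SEUSS-like unigene and, by a word of its rice match, the RING/U-box unigene again. Of its 233 other tested unigenes, 44 were called higher and 34 lower at 2 h, and 96 were called higher and 120 lower at 12 h. The median log2 fold change was -0.02 at 2 h and -1.11 at 12 h, against 0.05 and 0.00 over all 28005 unigenes tested. These descriptions too came from unigenes the study had called changed on these libraries, so nothing is read from the counts.

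The LEA unigene, c138878_g1, matches a group 1 LEA protein. It had control libraries at 54.8 and 52.8 CPM, 2 h libraries at 67.8 and 56.5 CPM, and 12 h libraries at 9.77 and 10.2 CPM. Both libraries of 2 h were above both controls, with a mean of 115% of control, and the mean at 12 h was 18.6%. On the TMM scale the log2 fold change at 2 h was 0.06 (SE 0.17), so the small gain in CPM was within the error of the fit. At 12 h it was -2.31 (SE 0.19). This was the 1 described unigene that lay above the controls at 2 h by library totals. With TMM its lowest 2 h library held 0.9515 of the lower control.

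The unigene of unknown function, c136478_g1, matches a protein with the domain DUF1262. It stood at 46.0 and 48.8 CPM in control leaves, at 41.8 and 34.1 CPM after 2 h, and at 6.31 and 8.44 CPM after 12 h. Its mean was 80.1% of control at 2 h and 15.6% at 12 h, and the log2 fold change was -0.47 (SE 0.19) and -2.56 (SE 0.22).

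**Figure D3:**
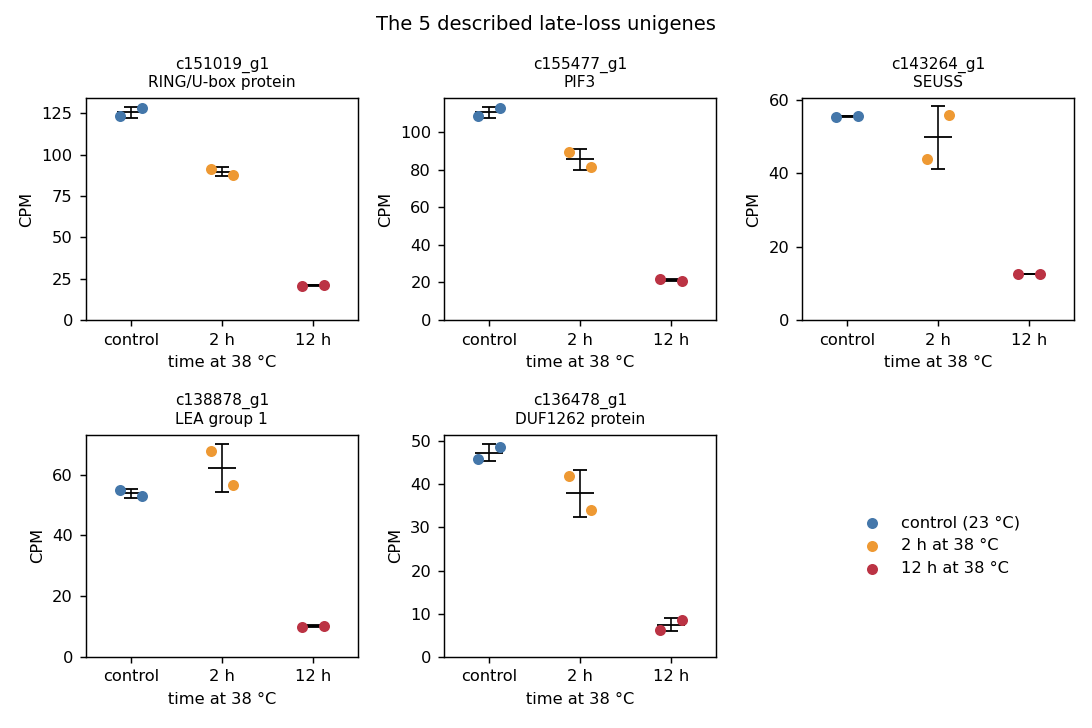
CPM of the 5 described late-loss unigenes in each library (points, y axis from 0) by time at 38 °C (x axis), with the mean and SD of the 2 libraries of each group (black bars). The libraries of 12 h lie at 6.31 to 21.8 CPM, and those of controls and 2 h at 34.1 to 128 CPM.

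Among the undescribed unigenes, 2 had the highest control levels. c156069_g1 had control libraries at 805 and 919 CPM, 2 h libraries at 812 and 722 CPM, and 12 h libraries at 82.4 and 92.6 CPM. Its libraries of 2 h overlapped the controls, at a mean of 89.0% of control, and its mean at 12 h was 10.2% of control. c155357_g1 stood at 476 and 487 CPM in control leaves, at 467 and 340.15 CPM after 2 h, and at 102 and 92.7 CPM after 12 h, which is 83.9% and 20.3% of control. The log2 fold change at 12 h was -3.19 (SE 0.16) for c156069_g1 and -2.19 (SE 0.18) for c155357_g1. The first of these alone lost more CPM than the 5 described unigenes together held.

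The next ones were picked once their values had been seen. c151331_g1 had the highest ratio at 2 h, with 89.9 and 110.0 CPM in control leaves, 305 and 295 CPM after 2 h, and 3.31 and 4.98 CPM at 12 h. It stood at 299.7% of control at 2 h and at 4.15% at 12 h, the widest step of the 43 at 72.3-fold. c151148_g1 had control libraries at 113 and 133 CPM, 2 h libraries at 329 and 340.4 CPM, and 12 h libraries at 22.4 and 22.4 CPM. c143420_g1 stood at 103 and 118 CPM in control leaves, at 236 and 203 CPM after 2 h, and at 6.01 and 10.2 CPM after 12 h. In these 3 the libraries of 2 h were well above the controls and the libraries of 12 h well below.

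c142389_g1 had control libraries at 52.3 and 53.9 CPM, 2 h libraries at 140.1 and 90.7 CPM, and 12 h libraries at 9.62 and 11.5 CPM. c142264_g1 stood at 60.0 and 55.8 CPM in control leaves, at 94.0 and 126 CPM after 2 h, and at 8.12 and 11.3 CPM after 12 h. Both were near 2 times the control at 2 h, at 217% and 190.0%, with a wide gap between the 2 libraries of 2 h. The log2 fold change at 2 h was 1.43 (SE 0.17) for c151331_g1, 1.29 (SE 0.15) for c151148_g1, 0.98 (SE 0.21) for c142389_g1 and 0.84 (SE 0.19) for c143420_g1. At 2 h c142389_g1 was called higher with library totals alone (1.12). It was also called with at least 10 counts in every library (1.05) and with only the 4 libraries compared (1.01). Without replicate 2 of 2 h, c142389_g1 reached 1.25.

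Relative to their controls, c144772_g1 and c146732_g1 had the lowest mean levels at 12 h. c144772_g1 had control libraries at 83.0 and 116 CPM, 2 h libraries at 134 and 95.4 CPM, and 12 h libraries at 2.41 and 2.63 CPM, or 2.52% of control. c146732_g1 stood at 84.9 and 121 CPM in control leaves, at 182 and 107 CPM after 2 h, and at 2.56 and 5.67 CPM after 12 h, or 4.0% of control. At 2 h both overlapped the controls. The log2 fold change at 12 h was -5.19 (SE 0.29) for c144772_g1, the lowest of the 43, and -4.51 (SE 0.36) for c146732_g1.

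At the other end, c152813_g1 had control libraries at 46.9 and 40.3 CPM, 2 h libraries at 28.8 and 29.3 CPM, and 12 h libraries at 5.86 and 6.92 CPM. Its mean at 2 h was 66.5% of control, since the limit of 0.7 was set against the lower control and not the mean. It was also the member nearest to the control minimum. The next inside were at 44.1 and 44.5 CPM in their lower control, and the nearest outside were c148185_g1, c149934_g1 and c150191_g1 at 39.4, 39.1 and 38.3 CPM. At the limit for 2 h, c151621_g1, c151306_g1 and c151211_g1 were just inside, with 0.707, 0.709 and 0.709 of the lower control. c154254_g1, c141604_g1 and c156443_g1 were just outside, with 0.697, 0.694 and 0.684. At the limit for 12 h, c138731_g1, c143146_g1 and c155575_g1 were just inside with 0.244, 0.242 and 0.242, and c156656_g1, c156476_g1 and c142990_g5 just outside with 0.251, 0.252 and 0.254. Values ran on across each limit with no gap, so the number of 43 follows from where the limits were put.

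In the model over all 6 libraries, a call required an adjusted p no higher than 0.05 together with a change of 2-fold or more (edgeR, quasi-likelihood test). All 43 late-loss unigenes were called lower at 12 h than in controls, where 23.3% of the 28005 unigenes tested were. All 43 were called lower at 12 h than at 2 h, where 19.6% of all tested were. At 2 h against controls, 2 (c151331_g1 and c151148_g1) were called higher, where 15.1% of all tested were, and 0 were called lower, where 8.98% were. With an unadjusted p and with DESeq2, 0 were also called lower at 2 h, and with no minimum fold change 10 were. The selection used each of these contrasts, so the counts are given beside the background and nothing is read from them. Median log2 fold changes of the 43 were -0.31 at 2 h (from -0.73 to 1.43), -2.47 at 12 h (from -5.19 to -1.97) and -2.32 for 12 h against 2 h (from -5.90 to -1.60). Over all unigenes tested the medians were 0.05, 0.00 and -0.09.

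Which unigenes belonged to the set depended on the scaling. With TMM the libraries of 2 h were scaled by factors of 1.09 and 1.11, those of 12 h by 0.904 and 0.928, and the controls by 0.996 and 0.988. This lowers the values of 2 h and raises those of 12 h against library totals. By library totals the median log2 fold change over all unigenes tested was 0.20 at 2 h and -0.11 at 12 h. On the TMM scale 23 of the 43 met the selection, and with factors of relative log expression (RLE) 20 did. Of those lost with TMM, 14 missed only the limit at 2 h, 3 missed only the limit at 12 h and 3 missed both. The lowest 2 h library then stood at 0.634 of the lower control and the highest 12 h library at 0.265. All 7 unigenes above the controls at 2 h by library totals stayed in the set. So did 14 of the 17 that overlapped them, but only 2 of the 19 below. Of the described unigenes, the SEUSS-like and the LEA unigene stayed, while those of PIF3, RING/U-box and DUF1262 had 0.676, 0.640 and 0.665 of the lower control at 2 h.

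**Figure D4:**
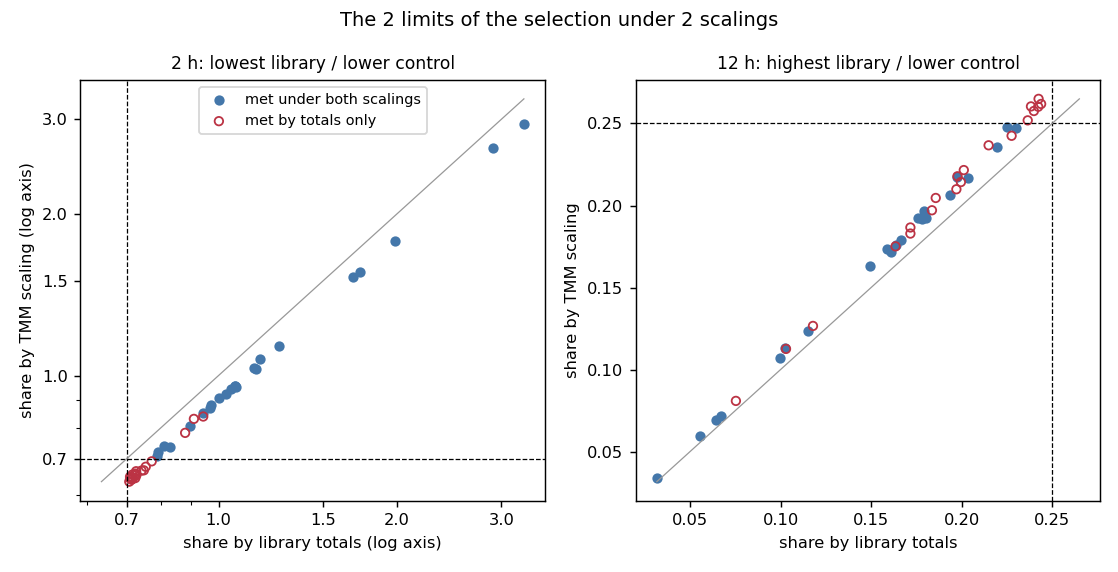
Shares of the lower control for the 43 late-loss unigenes by library totals (x axis) and by TMM scaling (y axis), for the lowest library of 2 h (left, log axes) and the highest library of 12 h (right). Dashed lines are the limits of 0.7 and 0.25, the grey line marks equal shares, and filled points are the 23 that met every limit under both scalings. Points lie below the line at 2 h and above it at 12 h.

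Replicates of the late-loss unigenes lay close together in the controls and further apart under heat. The 2 controls differed by at most 1.42-fold. At 2 h, 5 unigenes had replicates more than 1.5-fold apart, up to 1.77-fold, and at 12 h 5 did, up to 2.22-fold. The SD of the log2 ratio of replicate 1 to replicate 2 was 0.17 in controls, 0.356 at 2 h and 0.298 at 12 h for the 43, and 0.141, 0.475 and 0.185 for the other 2627 unigenes with the control minimum. By construction, a unigene with 1 low library at 2 h could not enter the set. The selection also made the 43 low at 12 h, with medians of 12.5 and 12.6 CPM in the 2 libraries. Counting error weighs more at low counts, so the SDs at 12 h are not compared. Its part in the spread was not tested. Replicate 1 was the higher one in 15 of 43 in controls (34.9%, beside 53.3% of the others), in 27 at 2 h (62.8%, beside 35.9%) and in 12 at 12 h (27.9%, beside 47.7%). In each group the share of the 43 with the higher replicate 1 thus lay apart from that of the other unigenes, and its part in the selection was not tested.

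The 43 unigenes came from 43 different components of the assembly, a component being a group of contigs that share sequence. In 7 of these components there were 12 further unigenes, of which 6 had counts enough for the test, and the other 6 reached at most 1.02 CPM in any library. These relatives did not meet the selection, and they can share reads with the late-loss unigene, so they are not independent of it. At 12 h, 5 of the 6 were called lower than in controls, where 23.3% of the 28005 unigenes tested were. Only 1 was called higher, where 7078 of all tested were, and 3 were called lower by DESeq2. At 2 h, 1 was called higher, where 15.1% of all tested were.

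c148837_g5, the most abundant relative, stood at 156 and 178 CPM in control leaves, at 76.6 and 114 CPM after 2 h, and at 19.4 and 26.4 CPM after 12 h. Its log2 fold change was -0.96 (SE 0.20, edgeR adjusted p = 0.0032) at 2 h and -2.75 (SE 0.22, edgeR adjusted p = 8e-07) at 12 h. The change at 2 h passed 2-fold without control replicate 1 (-1.06) or without replicate 2 of 2 h (-1.28). Its late-loss partner, c148837_g4, had control libraries at 273 and 245 CPM, 2 h libraries at 214 and 177 CPM, and 12 h libraries at 25.3 and 24.1 CPM. At 2 h c148837_g5 held 57.2% of its control and the partner 75.7%. The selection bounded the partner at both times, so the 2 are not compared.

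c147853_g1 stood at 13.5 and 18.2 CPM in control leaves, at 37.1 and 20.8 CPM after 2 h, and at 2.86 and 2.77 CPM after 12 h. It was lower at 12 h than in controls (log2 fold change -2.39, SE 0.35, edgeR adjusted p = 0.00011), and at 2 h it was not called (0.72, SE 0.28, edgeR adjusted p = 0.065) except without replicate 2 of 2 h (1.06). Its late-loss partner, c147853_g2, was the more abundant with 318 and 331 CPM in control leaves, 257 and 263 CPM after 2 h, and 49.5 and 52.0 CPM at 12 h. At 12 h c147853_g1 stood at 17.7% of control and the partner at 15.7%, a level that the selection required of the partner. Nothing is therefore read from their likeness at 12 h. At 2 h the pair lay on opposite sides of the controls, a difference that was not tested.

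c142389_g2 was scarce, with 5.51 and 6.72 CPM in control leaves, 14.1 and 8.78 CPM after 2 h, and 1.20 and 1.66 CPM at 12 h. As in its partner c142389_g1, both libraries of 2 h were above both controls, and it was lower at 12 h (log2 fold change -1.97, SE 0.40, edgeR adjusted p = 0.0013). c136334_g2 (-1.25, SE 0.42, edgeR adjusted p = 0.023) and c142389_g4 (-3.02, SE 1.2, edgeR adjusted p = 0.042) were called lower at 12 h on few counts, and both calls were lost without control replicate 2 (-0.59 and -2.46), without either library of 12 h (-1.20 and -3.07, or -1.23 and -2.91), and with DESeq2 (-1.19 and -3.08). c142389_g4 had 2 counts at 12 h and 20 in controls, a ratio of 0.103 with a 95% exact interval of 0.0116 to 0.422 for counting error.

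c144772_g2 went the other way from its late-loss partner. It had control libraries at 3.62 and 3.93 CPM, 2 h libraries at 9.85 and 13.0 CPM, and 12 h libraries at 8.27 and 8.30 CPM. It was higher than in controls at 2 h (log2 fold change 1.44, SE 0.28, edgeR adjusted p = 0.002) and at 12 h (1.24, SE 0.29, edgeR adjusted p = 0.0029), while c144772_g1 was the unigene with the lowest level at 12 h. The 12 h libraries of c144772_g2 were above those of c144772_g1, although its controls were far below. The selection required c144772_g1 to be low at 12 h, so nothing is read from this contrast.

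**Figure D5:**
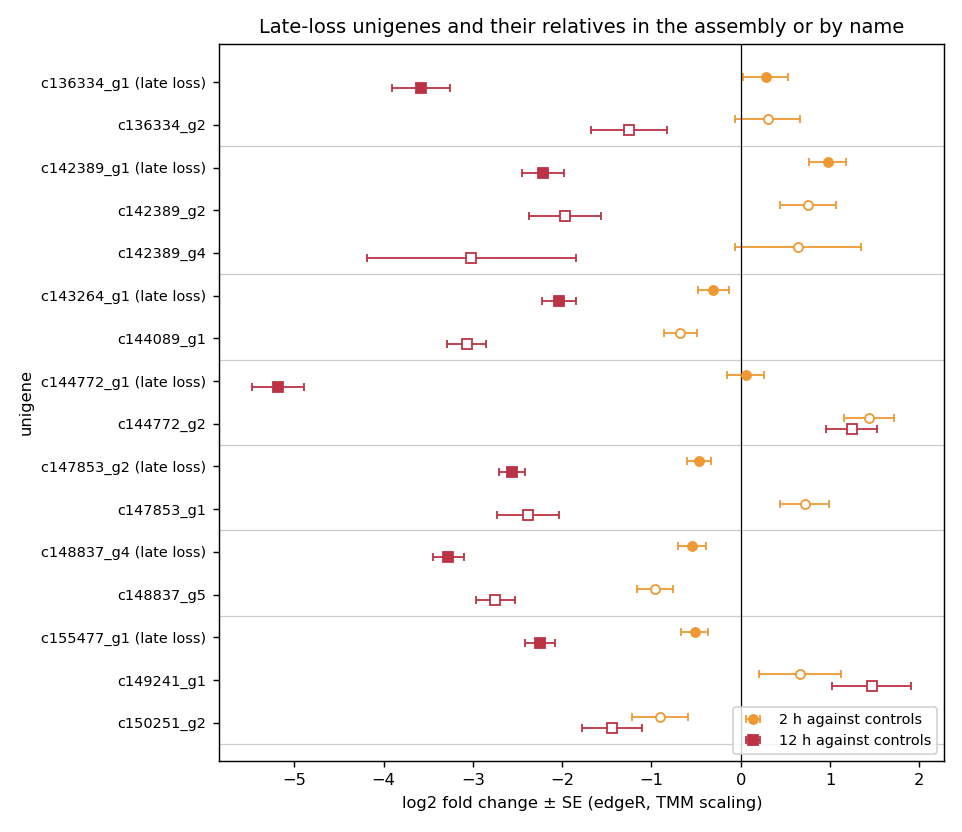
Log2 fold change with its SE (x axis, edgeR with TMM scaling) at 2 h (circles) and 12 h (squares) against controls, for 7 late-loss unigenes (filled) and 9 tested unigenes of the same component or the same Arabidopsis match (open). At 12 h the open squares lie below 0 except those of c144772_g2 (1.24) and c149241_g1 (1.47).

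Transcripts that mark leaf tissue were checked by 11 unigenes described as light-harvesting, photosystem or Rubisco-related proteins, none of them a late-loss unigene. Counts were present in every library for 8 of them, and 3 were listed at 0 in at least 1 library. Their sum, of which 3 unigenes matching PSAK, PSAO and PSBS made up 97.7 to 99.3%, was 12390 and 12477 CPM in control leaves, 9736 and 7883 CPM after 2 h, and 3845 and 3788.5 CPM at 12 h. Of 10 tested, 6 were called lower at 2 h, and 2 were called higher and 6 lower at 12 h. The summed leaf markers were below the controls at both times. At 2 h the unigenes matching PSAK (log2 fold change -0.44, SE 0.14) and PSAO (-0.64, SE 0.14) were not called, and that matching PSBS was called lower (-1.35, SE 0.13). The markers had descriptions only because the study had called them changed on these libraries, and the selection bounded the late-loss sum at both times. Nothing is therefore read from setting the 2 sums side by side. The part of the leaf markers in the late loss was not tested.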

How the data were processed

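Leaf RNA of 6 libraries was sequenced. Per the paper's methods, reads were assembled with Trinity and RSEM estimated the expected counts that the authors deposited, with no scaling between libraries. The labels instead name TopHat2 2.0.12, Bowtie2 2.2.3, HTSeq 0.6.1 and DESeq 1.18.0. No genome was used. Of the 258 values of the 43 members, 1 was not whole. CPM was computed from library totals of 6349776 to 7891567 counts, which allow a floor of 3 counts, or 0.38 to 0.472 CPM, for counting error only.

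Counts were rounded, filtered with filterByExpr (minimum count 10), scaled by TMM and fitted over all 6 libraries by the quasi-likelihood test of edgeR 4.0.16 in R 4.3.3, with Benjamini-Hochberg adjustment over 28005 unigenes. The residual degrees of freedom were 3 and the common dispersion 0.0271. SE is the log2 fold change over the root of its F. DESeq2 1.42.0 was an alternative. The fit was checked on simulated data. Other alternatives were RLE factors, library totals, other count filters, the 4 libraries compared, a replicate block, other call rules, other limits of the selection, and each library left out.

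Members and lists were chosen with earlier results of these data known. Named were all described members, the 2 undescribed members with the highest control CPM, the 3 nearest each limit on either side, and relatives by component or Arabidopsis match. Others were picked once their values had been seen and are said to be so. This also holds for c145535_g1, for c152021_g1 with c144562_g1 and c149452_g1 of its match, and for c152813_g1 where its values are given. Lists were word matches in 1947 descriptions taken from the study's tables, from which no value was used. Lists of auxin, other hormones, kinases and phosphatases, transporters, cell wall, P450 and UDP-glycosyltransferases, redox, lipids and transposons hold 0 members and are not described. The 38 members without a description at hand could not enter any list, so nothing is read from these absences.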

Additional observations from a re-analysis of the deposited data

Results flagged for a closer look

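For 6 unigenes that are relatives of late-loss unigenes, the change at 12 h differed from the change at 2 h by the test of 12 h against 2 h in edgeR, with adjusted p over all unigenes tested. On the log2 scale the difference of 12 h minus 2 h was -3.10 (SE 0.34) for c147853_g1, -2.72 (SE 0.38) for c142389_g2, -2.40 (SE 0.22) for c144089_g1 and -1.79 (SE 0.22) for c148837_g5. It was -1.55 (SE 0.41) for c136334_g2 and -3.66 (SE 1.1) for c142389_g4, which had 1 count in each library of 12 h. Adjusted p was 3.1e-05, 0.00018, 9.2e-06, 5.9e-05, 0.0089 and 0.015 in this order. Without either library of 12 h the calls of c136334_g2 (-1.50 and -1.53) and c142389_g4 (-3.70 and -3.53) were lost, as was that of c142389_g4 without replicate 1 of 2 h (-1.63). The late-loss unigenes themselves were chosen by this difference and are not listed. Their relatives can share reads with them, so these tests are not independent of the choice. Over all unigenes tested, 19.6% were called lower at 12 h than at 2 h.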

How the results depend on the processing

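Of the 43 unigenes selected by library totals, 23 were selected with TMM scaling and 20 with RLE scaling, each a subset of the 43. A control minimum of 20 CPM gave 93 and one of 80 CPM gave 24, and a limit at 2 h of 0.5 gave 103 and one of 0.9 gave 20. Leaving out 1 library gave 41 to 63 unigenes, with all 43 retained when the library was one of heat, 32 retained without control replicate 1 and 38 without control replicate 2. The counts of 43 called lower at 12 h, against controls and against 2 h, were the same in every alternative run. Without each library in turn they stayed at 43, those called lower at 2 h at 0, and those called higher at 2 h at 2 to 3. With no minimum fold change 5 were called higher and 10 lower at 2 h. Relatives called lower at 12 h were 5 in the edgeR fit, 3 with at least 10 counts in every library (4 tested), 3 with DESeq2, and 3 to 5 with 1 library left out. The fewer calls with 10 counts in every library follow from fewer unigenes tested, and for the others the cause was not tested. Replicate numbers do not pair the samples (correlations of deviations of -0.0222, 0.0113 and -0.0222), and with the replicate block the calls stayed at 43, 43, 2, 0 and 5. With 2 libraries per group, 3 residual degrees of freedom limit the precision of every SE.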
